A study of Homo sapiens with 4 samples.

Results

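Mitochondrial ribosomal protein genes are the nuclear genes named MRPL (large subunit) or MRPS (small subunit). The members were all protein-coding genes whose current symbol is MRPL or MRPS followed by a number and an optional letter, that reached an RPKM of 1 in at least 1 of 4 libraries. Of 19801 genes measured, 14626 passed that limit, and 77 of the 77 genes with such a name were among them. They comprised 49 MRPL and 28 MRPS genes on 21 chromosomes. The rule used no measured change, although it was set with earlier results of these data known.

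RNA was sequenced from LNCaP, an established human line of prostate cancer cells that respond to androgen. These were transiently transfected for 24 h, either with AR1-651 or with an empty vector, and were then left without AIL or given AIL (ailanthone, a natural compound) for 12 h. Values for a gene are given below in the order empty vector, empty vector + AIL, AR1-651, and last AR1-651 + AIL. There was 1 library per condition, so no difference has a replicate check, no p-value is given, and the difference between any pair of libraries cannot be told apart from the spread between cultures.

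The mitochondrial ribosome translates the small set of messages encoded in mitochondrial DNA, all of them for subunits of the respiratory chain and ATP synthase. Its ribosomal RNAs come from mitochondrial DNA, whereas its proteins are encoded in the nucleus, made in the cytosol and imported. Part of the proteins descend from those of the bacterial ribosome, and the others were added in the line that led to mitochondria. Normal prostate epithelium is known for secreting citrate, an intermediate of mitochondrial metabolism.

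The deposited values were RPKM, that is, reads per length of exon scaled to the reads of the library, so levels can be set side by side between genes. The depth was not stated, and the steps between low RPKM values of short genes placed it at about 5050000, 4950000, 5560000 and 5710000 counted reads. That estimate put between 67.4% and 74.9% of the short genes, and between 42.6% and 52.3% of mRNAs with a single transcript, at whole numbers of reads, so it is approximate. On it, a member rested on 46.3 to 4900 reads in a library (median 458), and counting alone gave a change a standard error of 0.031 to 0.28 on the log2 scale (median 0.098). The prostate marker KLK3 was at 287, 303, 1442 and 582 RPKM. The androgen-responsive genes KLK2 (14.3, 11.6, 197.5 and 45.4 RPKM) and TMPRSS2 (36.7, 16.6, 276 and 65.1 RPKM) were, like KLK3, highest in the library labelled AR1-651. Names of conditions below are those of the labels.

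Every member was expressed in every library. The median RPKM of the 77 genes was 51.1, 82.3, 74.4 and 94.0, whereas the median of all 14626 genes was 9.26, 9.27, 6.83 and 8.47. Together they made up 0.998%, 1.48%, 1.21% and 1.54% of the summed RPKM. The share was thus lowest with empty vector and highest in the library with both AR1-651 and AIL. Large subunit genes had medians of 56.8, 92.7, 81.0 and 95.2 RPKM, and small subunit genes 48.0, 77.7, 57.7 and 78.0. In bulk RNA, a change in the RNA of each cell and a change in the mix of cells cannot be told apart.

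**Figure D1:**
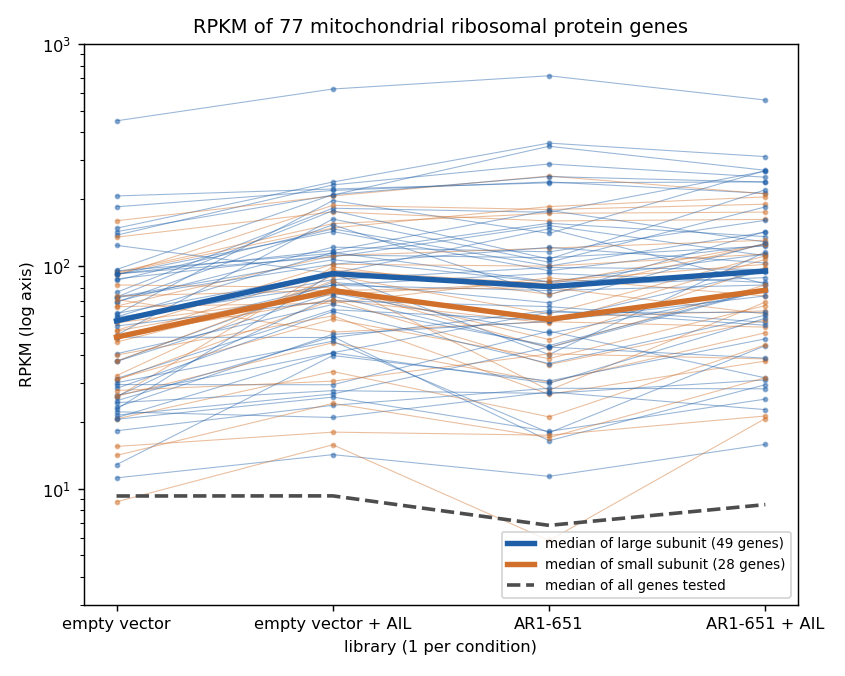
RPKM (log axis) of each of the 77 genes in the 4 libraries, with 1 thin line per gene, blue for the large and orange for the small subunit, thick lines for the medians and a dashed line for the median of all genes tested. Most lines are lowest with empty vector, and the members' medians lie above the dashed line in every library.

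The order of the genes by level was led by a member without a bacterial counterpart. MRPL41 was at 451, 627, 719 and 559 RPKM. It was followed by MRPL33 at 148, 239, 358 and 311 RPKM and MRPL24, a protein of the rim of the exit tunnel, at 143, 209, 347 and 270 RPKM. MRPL41 was apart from all other members in each library, and MRPL33 was above MRPL24 in all 4.

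MRPL12, the counterpart of the bacterial L7/L12 stalk protein that contacts translation factors, was at 138, 232, 289 and 252 RPKM. MRPL51 was at 207, 223, 237 and 240 RPKM and varied least of these 5 genes. At the other end of the order was MRPS31, at 8.72, 15.7, 5.84 and 20.7 RPKM. The genes next above it were MRPL19 (11.2, 14.2, 11.4 and 15.8 RPKM), MRPS25 (15.5, 17.9, 17.4 and 21.2 RPKM), MRPS10 (14.1, 24.2, 16.95 and 31.5 RPKM) and MRPL44 (20.5, 25.8, 18.1 and 25.3 RPKM). All of these exceeded the median of all genes in the same library except MRPS31, which was below it in the empty vector and AR1-651 libraries.

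The first question was how expression differed with AIL in cells with empty vector. Mitochondrial ribosomal protein genes were higher with AIL almost throughout. Changes are given as differences of log2(RPKM + 1), a scale that makes the changes of weakly expressed genes look smaller, and a gene was counted as higher or lower at a change of at least 1.5-fold on it. The median change was 0.67 over the members and -0.02 over all genes tested. Of the 77 members, 71 (92.2%) were above 0, against 48.3% of all genes. By at least 1.5-fold, 45 were higher and 0 were lower, where 20.9% of all genes were higher and 22.1% lower by that measure. At least 2-fold higher were 20 members, and 0 were at least 2-fold lower, against 9.53% and 9.03% of all genes. Both subunits took part, with a median of 0.62 for the large and 0.70 for the small subunit.

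MRPL2, the counterpart of a bacterial protein next to the peptidyl transferase centre, had the largest rise. Its RPKM was 22.8, 92.7, 40.1 and 116, a change with AIL of 1.98 in the empty vector background (counting standard error 0.14). Both libraries with AIL were above both without. Its exons overlap those of KLC4 on the opposite strand.

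MRPS18A was at 25.8, 99.4, 74.8 and 126 RPKM, a change of 1.91 (counting standard error 0.15). It carries a small subunit name but lies in the large subunit in structures of the human ribosome, as does MRPS30. The split by subunit used here follows the names. MRPS18A shares exon bases with RSPH9 on the opposite strand.

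MRPL9 was at 49.0, 163, 104 and 185 RPKM (change 1.72). MRPL58, a peptidyl-tRNA hydrolase that became part of the large subunit, was at 60.8, 198, 141 and 269 RPKM (change 1.68). MRPL22, at the exit tunnel, was at 12.8, 39.7, 30.5 and 47.1 RPKM (change 1.56). In all 3 the empty vector library was the lowest and the library with AR1-651 and AIL the highest. The exons of MRPL9 overlap OAZ3 on the opposite strand, and no gene overlapped MRPL58 or MRPL22.

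At the low end, 6 members were below 0 and each of them by less than 1.5-fold. MRPS27, a pentatricopeptide repeat protein of the small subunit, was at 70.9, 50.6, 56.3 and 53.3 RPKM (change -0.48, counting standard error 0.07). It was the only member highest with empty vector. MRPL37 was at 124, 92.9, 147 and 83.3 RPKM (change -0.42) and was lower with AIL in both backgrounds. The changes of MRPL30 (22.2, 20.9, 27.2 and 22.7 RPKM), MRPS35 (82.4, 80.1, 43.1 and 82.5 RPKM) and MRPL16 (48.0, 47.8, 63.2 and 54.3 RPKM) were -0.08, -0.04 and -0.01, within 1 counting standard error of 0. MRPS27 overlaps PTCD2, and MRPL37 overlaps CYB5RL and SSBP3, all on the opposite strand.

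Promoter sequences are shown for the members at both ends of this comparison, because they let the start regions of genes that moved by different amounts be read side by side. RefSeq promoter windows (250 bases before to 50 after the start, GRCh38.p14) matched 69 of the 77 members, and of those 69, the 3 that rose most and the 3 with the lowest change were taken. Each line gives the 120 bases before the start, read 5′ to 3′ on the gene's strand. Capitals mark an ETS-type motif (CCGGAAG) or an SP1-type motif (GGGCGGG, which reads CCCGCCC when it lies on the other strand). The windows are at chr6:43687792-43687911 (minus strand) for MRPS18A, chr1:151763497-151763616 (minus) for MRPL9, chr17:75012550-75012669 (plus) for MRPL58, chr5:72320241-72320360 (minus) for MRPS27, chr1:54200047-54200166 (plus) for MRPL37 and chr2:99181064-99181183 (plus) for MRPL30.
MRPS18A: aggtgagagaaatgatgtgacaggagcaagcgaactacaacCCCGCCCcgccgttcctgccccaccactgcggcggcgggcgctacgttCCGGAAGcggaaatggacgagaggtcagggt
MRPL9: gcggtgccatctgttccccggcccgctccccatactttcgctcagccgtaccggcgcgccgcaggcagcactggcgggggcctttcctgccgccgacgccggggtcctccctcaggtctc
MRPL58: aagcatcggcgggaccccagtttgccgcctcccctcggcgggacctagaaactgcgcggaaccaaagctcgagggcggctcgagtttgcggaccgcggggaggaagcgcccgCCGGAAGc
MRPS27: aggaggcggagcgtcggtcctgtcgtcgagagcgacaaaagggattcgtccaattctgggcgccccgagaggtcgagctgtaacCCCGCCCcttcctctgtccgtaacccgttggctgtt
MRPL37: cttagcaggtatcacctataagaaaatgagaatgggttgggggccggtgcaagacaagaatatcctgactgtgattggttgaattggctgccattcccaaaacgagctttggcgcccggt
MRPL30: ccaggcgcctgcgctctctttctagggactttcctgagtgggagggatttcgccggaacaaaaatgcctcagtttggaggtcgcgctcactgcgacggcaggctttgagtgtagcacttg

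MRPS18A and MRPL58 show an ETS-type motif, and MRPS18A an SP1-type motif as well. MRPL9 shows none of the marked motifs. Among the members at the low end, MRPS27 shows an SP1-type motif, and MRPL37 and MRPL30 show no capitals in these bases. Elsewhere in the 300-base windows, MRPS18A held the YY1-type motif described next, MRPL30 an ETS-type motif and MRPL37 an E-box.

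Over whole 300-base windows and both strands, the ETS-type motif was present in 29 of 69 members (42.0%), in 19.3% of the 11173 genes tested that had a window and in 10.7% of all 27305 windows. The YY1-type motif GATGGCG was present in 16 members (23.2%), in 7.54% of the genes tested and in 4.35% of all windows. The NRF1-type motif GCATGCG was present in 7 members (10.1%), in 6.68% of the genes tested and in 4.13% of all windows. NRF1, YY1 and ETS-family factors are known regulators of nuclear genes for mitochondrial proteins. At least 1 of these motifs was in 43 of 69 members (62.3%) and in 29.6% of the genes tested.

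The other motifs were no more frequent in the members than in the genes tested. The SP1-type motif was in 34 members (49.3%, against 52.4%), the E-box CACGTG in 6 (8.70%, against 9.99%) and the TATA-type motif TATAAA in 2 (2.90%, against 5.74%). None of the motif strings contains another. GC content of the windows had a median of 60.3% in the members and 65.0% in the genes tested. A match is a description of letters in the window.

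**Figure D2:**
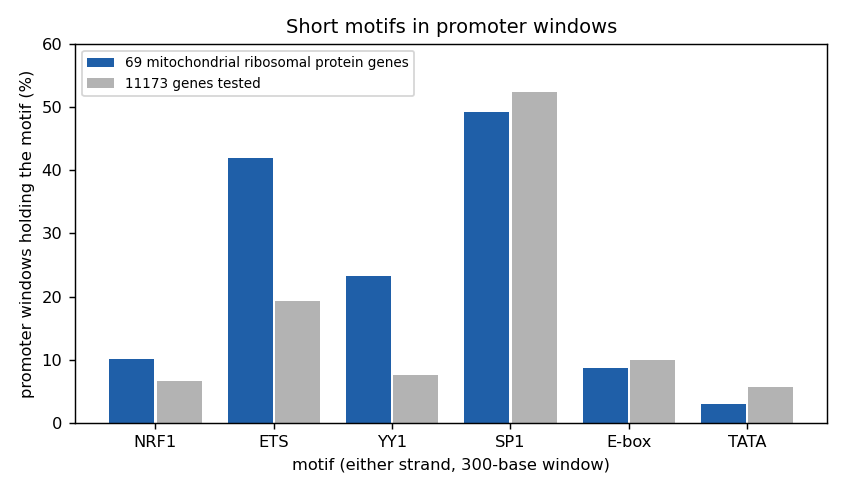
Percentage of 300-base promoter windows that hold each motif on either strand, for the 69 members (blue) and the 11173 genes tested (grey) that have a window. The ETS-type bar stands at 42.0% against 19.3% and the YY1-type bar at 23.2% against 7.54%, while the SP1-type bars are close together.

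With AIL in the empty vector background, the 16 members with the YY1-type motif had a median change of 1.08 and those without it 0.59. For the 7 members with the NRF1-type motif the medians were 1.17 and 0.62, and for the ETS-type motif 0.69 and 0.61. The E-box, in 6 members, gave 1.09 and 0.60, the SP1-type motif 0.60 and 0.72 and the TATA-type motif 0.60 and 0.64. Over all genes tested, genes with the YY1-, NRF1- and ETS-type motifs had medians of 0.14, 0.09 and 0.17. Members without any given motif were thus also above the median of all genes. In the AR1-651 background the order for the ETS-type motif was reversed, at 0.09 with and 0.38 without it. There the YY1-type motif gave 0.74 and 0.13, the NRF1-type 0.61 and 0.18 and the E-box 0.61 and 0.15. These splits were not tested.

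A member started head to head with another protein-coding gene within 1000 bases in 18 of 69 cases (26.1%), as did 1424 of 10166 coding genes tested (14.0%). One such pair consists of 2 members. MRPL46 and MRPS11, of the large and small subunit, start 320 bases apart in opposite directions on chromosome 15. Their upstream sequences are shown because these bases lie between them, at chr15:88467389-88467508 (minus strand) for MRPL46 and chr15:88467588-88467707 (plus) for MRPS11, with no motif to mark.
MRPL46: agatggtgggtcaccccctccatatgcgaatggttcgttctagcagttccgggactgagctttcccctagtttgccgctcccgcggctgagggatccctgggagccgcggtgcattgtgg
MRPS11: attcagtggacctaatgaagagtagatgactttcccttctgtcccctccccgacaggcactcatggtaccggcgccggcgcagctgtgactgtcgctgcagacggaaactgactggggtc

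MRPL46 was at 25.9, 73.3, 43.1 and 78.2 RPKM, and MRPS11 at 51.5, 102, 100.1 and 113.5 RPKM. Both were lowest with empty vector and highest with AR1-651 and AIL. With AIL in the empty vector background they changed by 1.46 and 0.98, and in the AR1-651 background by 0.84 and 0.18. This pair was chosen after its values were seen. Over the 18 members that start head to head, the median change with AIL in the empty vector background was 0.74, and over their partners it was 0.52. MRPL46 and MRPS11 are each other's partner, so both count in both medians.

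The second comparison was AIL in cells with AR1-651. There the members' median was 0.25 and that of all genes tested was 0.13. Of the members, 52 (67.5%) were above 0, against 56.2% of all genes. A further count found 29 higher by at least 1.5-fold and 2 lower by as much, against 28.6% and 14.7% of all genes. At least 2-fold higher were 7 members (14.9% of all genes), and 0 were at least 2-fold lower (5.74% of all genes). The count that was at least 1.5-fold higher comes to 37.7% of the members. The large subunit had a median of 0.17 and the small subunit 0.38. With median-ratio scaling the members' median was 0.031, that of all genes -0.03, and 19 members were higher and 5 lower by 1.5-fold. The unscaled change had Spearman rho = -0.329 with GC content over the members and -0.407 over all genes tested. With mean RPKM, rho was -0.331 over the members and -0.039 over all genes tested.

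MRPS31 had the largest rise in this comparison, 1.66 (counting standard error 0.24), from the lowest value of any member in the 4 libraries to 20.7 RPKM. MRPL2 rose by 1.51. MRPS18B was at 37.3, 86.1, 27.7 and 69.0 RPKM (change 1.29), MRPL39 at 29.9, 46.0, 17.8 and 43.9 RPKM (change 1.25) and MRPS22 at 45.6, 79.98, 46.8 and 98.6 RPKM (change 1.06). In these 5 genes both libraries with AIL were above both without. MRPS22 overlaps COPB2 on the opposite strand, and MRPS31 has 4 pseudogenes named after it, with which reads may be shared.

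MRPL37 had the lowest change, -0.82. It was followed by MRPL17 at 29.4, 29.3, 51.1 and 31.5 RPKM, with a change of -0.68. Both were thus at least 1.5-fold lower with AIL than with AR1-651 alone. MRPL28 (92.4, 118, 178 and 129 RPKM), MRPL23 (92.4, 110.1, 152.5 and 112 RPKM) and MRPS15 (73.5, 77.9, 80.3 and 61.0 RPKM) changed by -0.47, -0.45 and -0.39. All 5 were highest in the AR1-651 library without AIL, an order that choosing them by their fall from it favours.

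Of the 77 members, 27 were at least 1.5-fold higher with AIL in both backgrounds, 18 with empty vector and not with AR1-651, 2 (MRPS35 and MRPS6) with AR1-651 and not with empty vector, and 30 in neither. Over all genes tested these shares were 14.4%, 6.56%, 14.2% and 64.8%, against 35.1%, 23.4%, 2.60% and 39.0% of the members. Both libraries with AIL were above both libraries without it in 44 members (57.1%) and in 29.1% of all genes tested. Across the 77 members the changes with AIL in the 2 backgrounds, which share no library, had Pearson r = 0.658 and Spearman rho = 0.672. Across all genes tested r was 0.565. These are descriptions across genes, which are not independent replicates.

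The change with AIL was smaller with AR1-651 than with empty vector in 62 of 77 members, with a median difference of -0.40. The median difference was 0.14 over all 14626 genes tested, of which 5817 were below 0. It was -0.56 over cytosolic ribosomal protein genes (77 of 84 below 0) and -0.53 over respiratory chain subunits (70 of 81 below 0). The difference was not tested, since each condition has 1 library, and it was -0.61 with median-ratio scaling and -0.26 with equal summed RPKM outside cytosolic ribosomal protein genes. MRPL54 was at 96.7, 210, 253 and 239 RPKM, so its change with AIL was 1.11 with empty vector and -0.08 with AR1-651. MRPS26 was at 91.0, 188, 180 and 190 RPKM, with changes of 1.04 and 0.08. In both genes the empty vector library was below the other 3.

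The difference was above 0 in 15 members, 3 of them by at least 1.5-fold, against 8809 and 3544 of the 14626 genes tested. MRPS35, a small subunit protein without a bacterial counterpart, had AIL changes of -0.04 and 0.92, and the AR1-651 library alone was low, at 43.1 RPKM against 80.1 to 82.5 in the other 3. MRPS31 and MRPL39 likewise had their lowest values with AR1-651 alone. MRPS9 was at 20.6, 33.6, 21.0 and 44.3 RPKM, with changes of 0.68 and 1.04.

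**Figure D3:**
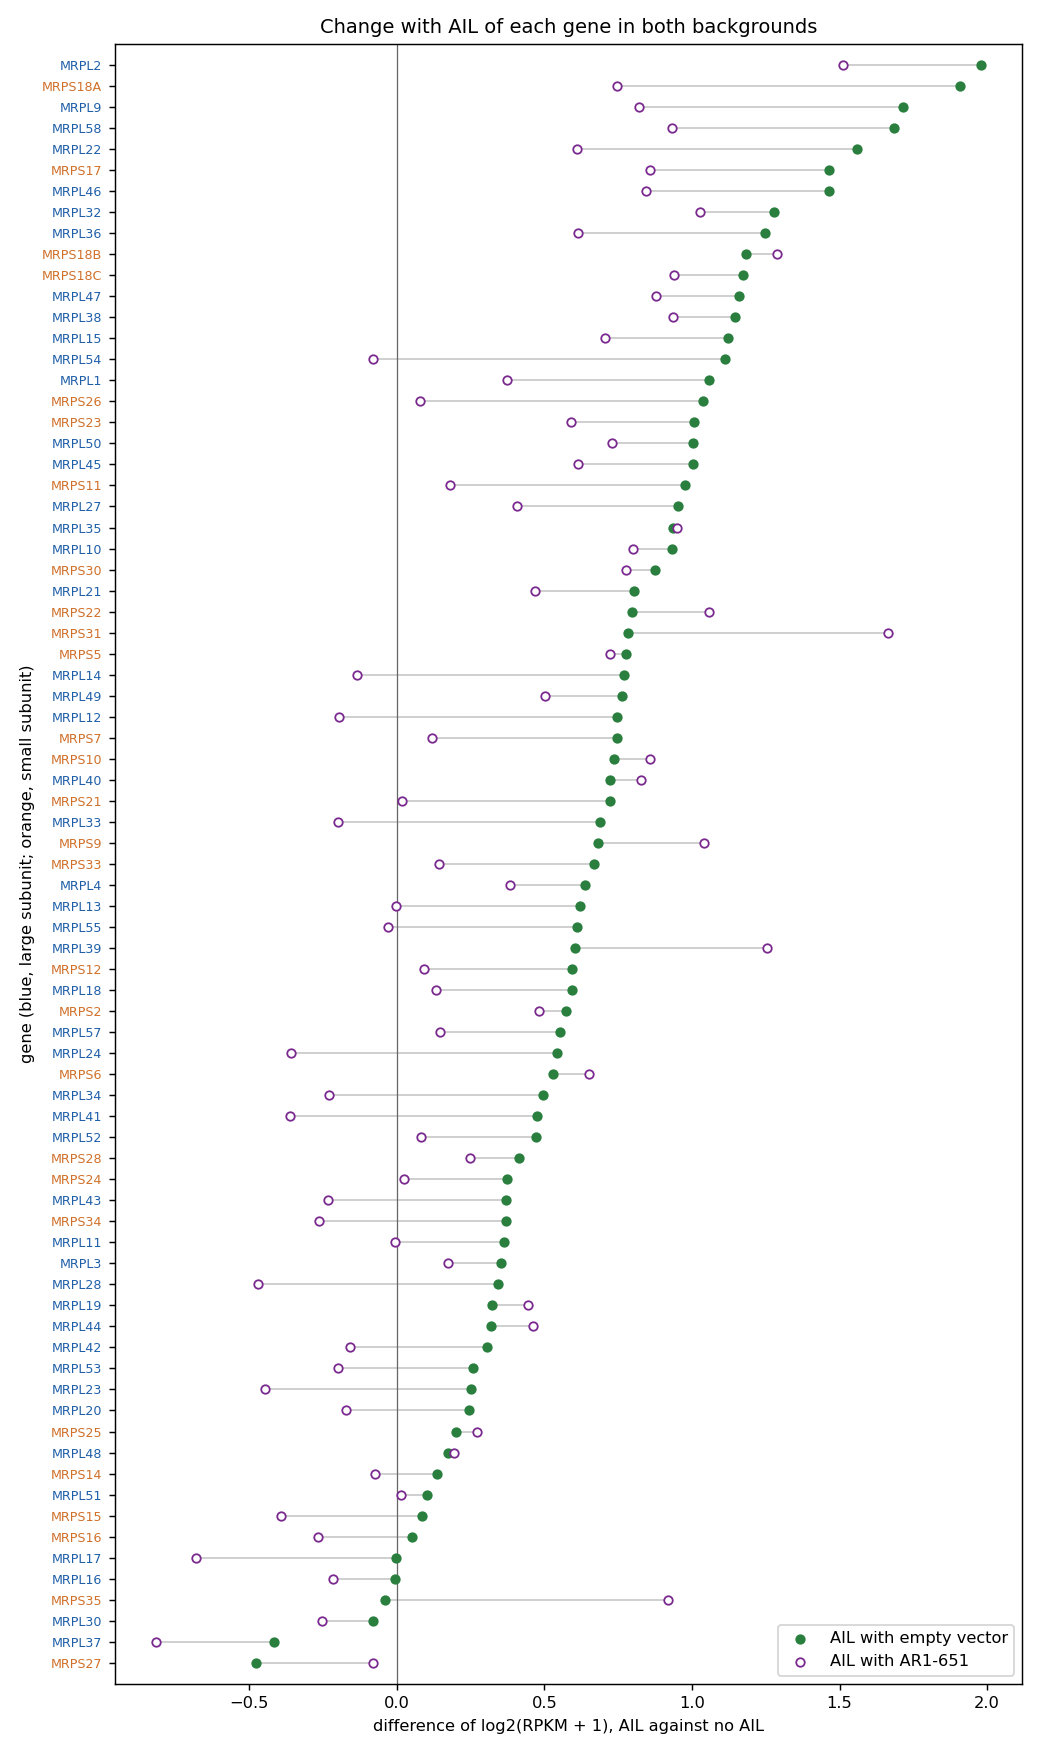
Change with AIL, as a difference of log2(RPKM + 1), of each of the 77 genes with empty vector (filled green) and with AR1-651 (open purple), ordered by the former, with gene names blue for the large and orange for the small subunit. Most open points lie to the left of the filled ones (62 of 77), and the right ends belong to MRPL2 and MRPS18A.

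The third comparison was AR1-651 against empty vector without AIL. The members' median was 0.52 and that of all genes tested -0.30. Of the members, 68 (88.3%) were above 0, against 32.2% of all genes. Higher by at least 1.5-fold were 36, and 2 were lower by as much, against 10.7% and 32.3% of all genes. At least 2-fold higher were 11 (4.01% of all genes), and 0 were at least 2-fold lower (11.6% of all genes). The median was 0.61 for the large and 0.27 for the small subunit, and with the trend in transcript length removed the large minus small difference was 0.16. With median-ratio scaling the members' median was 0.78 and 1 was lower, while 4 were lower with a pseudocount of 0.1 and 5 with equal summed RPKM outside cytosolic ribosomal protein genes. Without these alternatives, the median was 0.61 for the 45 members listed here as having a bacterial counterpart and 0.29 for the 32 not so listed. MRPS18A and MRPS18B, which share a family name with the listed MRPS18C, are among the 32, so the split depends on the list.

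MRPS18A changed by 1.502 and MRPL54 by 1.38. MRPL24 and MRPL33 both changed by 1.27. MRPL1, of the L1 stalk, was at 23.2, 49.4, 56.6 and 73.6 RPKM and changed by 1.25. In each of these 5 genes the empty vector library was the lowest of the 4, an order that choosing them by their rise over it favours. MRPL33 overlaps BABAM2 on the same strand.

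At the low end MRPS35 changed by -0.92 and MRPL39 by -0.72, and these were the 2 genes at least 1.5-fold lower. MRPS2 was at 39.9, 59.9, 26.6 and 37.4 RPKM and MRPL10, which anchors the L7/L12 stalk, at 24.8, 48.3, 16.4 and 29.3 RPKM, and each changed by -0.57. MRPS31 changed by -0.51 (counting standard error 0.28). The AR1-651 library was the lowest of the 4 in all 5 of these genes, an order that choosing them by their fall in that library favours.

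Transcript length and expression level both moved with this comparison. Member transcripts had a median length of 1264 nt and all genes tested 2550 nt. The change with AR1-651 without AIL had Spearman rho = -0.414 with transcript length over 14005 genes and rho = -0.288 over the 77 members. With mean RPKM, rho was 0.321 over the 14005 genes and 0.455 over the members. For AIL with empty vector, rho with mean RPKM was 0.237 over the 14005 genes and 0.114 over the members. No alternative setting removed a trend with level. With the trend in length removed, the median of the members was 0.58 and that of all genes tested -0.02. Between 1024 and 1448 nt, where the median member lies, the 1204 genes tested had a median of 0.15, with quartiles of -0.30 and 0.58, without that removal.

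**Figure D4:**
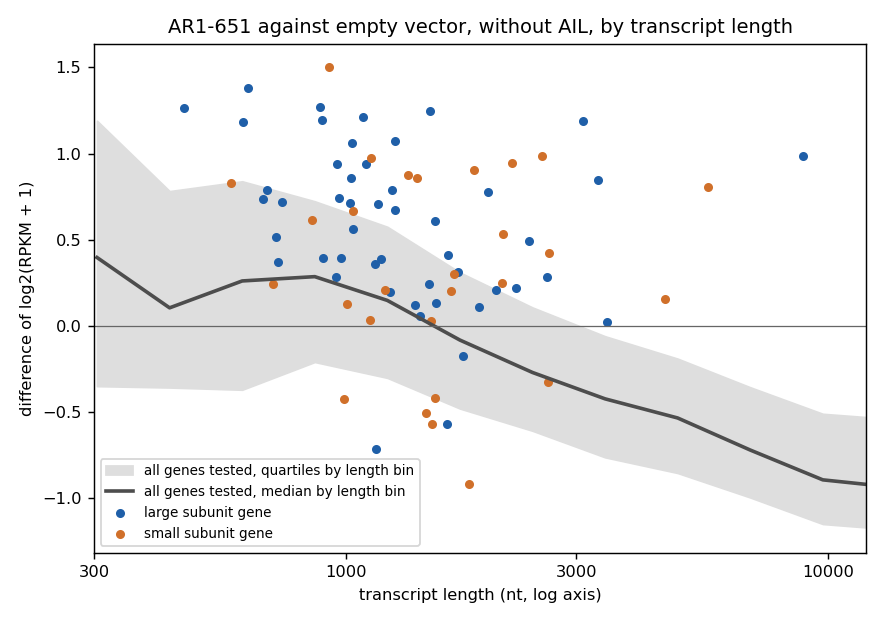
Difference of log2(RPKM + 1) between AR1-651 and empty vector, without AIL, against transcript length (log axis) for the large (blue) and small (orange) subunit genes, with the median (line) and quartiles (band) of all genes tested in bins of length. The line falls with length, from 0.29 in the bin that ends at 1024 nt to -0.89 in the bin that starts at 8192 nt, and most members lie above it.

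The fourth comparison was AR1-651 against empty vector, both with AIL. The members' median was 0.14 and that of all genes tested -0.03. Above 0 were 57 members (74.0%), against 46.9% of all genes. However, 2 were higher by at least 1.5-fold and 2 were lower by as much, against 7.73% and 15.5% of all genes. At least 2-fold changes were 0 in both directions, against 1.46% higher and 3.53% lower over all genes. The standard deviation of the members' changes was 0.27, against 0.49 to 0.53 in the other 3 comparisons, and that of all genes was also smallest here (0.556, against 0.706 to 0.825). Medians were 0.13 for the large and 0.19 for the small subunit. The 2 higher members became 6 with median-ratio scaling and 0 with equal summed RPKM outside cytosolic ribosomal protein genes.

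MRPS18C, the counterpart of bacterial S18, was at 30.8, 70.7, 55.5 and 107 RPKM and changed by 0.60. MRPL13 (26.2, 40.9, 62.2 and 62.0 RPKM) changed by 0.59 and MRPL47 (37.4, 84.7, 68.5 and 127 RPKM) by 0.58. MRPL50 (31.3, 63.7, 57.1 and 95.2 RPKM) changed by 0.57 and MRPL1 by 0.56. All 5 were also lowest with empty vector. MRPL10 changed by -0.70 and MRPS2 by -0.66, the 2 members at least 1.5-fold lower. MRPS15 (-0.35), MRPL43 (-0.32, at 53.9, 69.97, 65.8 and 55.9 RPKM) and MRPS18B (-0.32) came next. GC content moved with this comparison as well, with rho = -0.554 over the members and -0.607 over all genes tested.

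**Figure D5:**
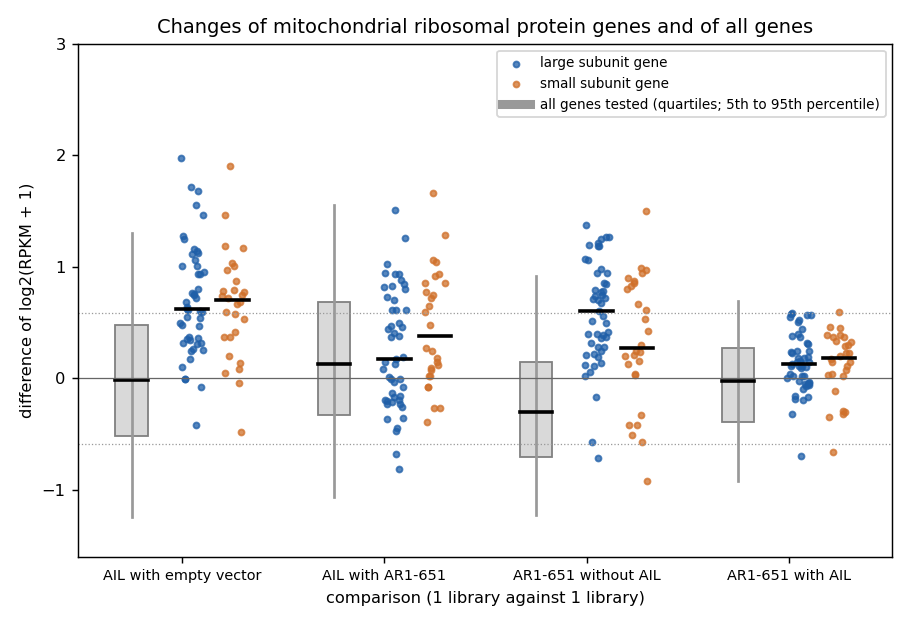
Differences of log2(RPKM + 1) in the 4 comparisons for large (blue) and small (orange) subunit genes, with black bars for the medians, beside the quartiles (box) and the 5th to 95th percentile (line) of all genes tested. Dotted lines mark 1.5-fold. The members lie above the box's median in most cases for AIL with empty vector and for AR1-651 without AIL, and are drawn together in AR1-651 with AIL.

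The empty vector library was the lowest of the 4 for 63 members (81.8%) and for 22.5% of all genes tested. The highest value was in AR1-651 + AIL for 37 members (48.1%, against 26.2% of all genes), in AR1-651 for 23 (29.9%, against 14.9%), in empty vector + AIL for 16 (20.8%, against 21.3%) and in empty vector for 1 (against 37.6% of all genes). By subunit, AR1-651 + AIL was highest for 18 of 28 small subunit genes and 19 of 49 large subunit genes. The comparisons of AIL with empty vector and of AR1-651 without AIL share the empty vector library, so the values of both rest on it.

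Subunits that do not carry the family name were also measured. DAP3, a GTP-binding small subunit protein, was at 58.7, 78.3, 77.6 and 93.0 RPKM. GADD45GIP1, of the large subunit, was at 119, 263, 246 and 285 RPKM and changed by 1.13 with AIL in the empty vector background. CHCHD1, AURKAIP1 and PTCD3 changed by 0.45, 0.56 and 0.09. All 5 were above 0, and GADD45GIP1 was the 1 that was at least 1.5-fold higher. KGD4, formerly named MRPS36 and now assigned to the 2-oxoglutarate dehydrogenase complex, was at 22.9, 40.5, 49.5 and 54.1 RPKM and is not a member.

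Factors that work with the mitochondrial ribosome fell into groups with different medians. In the empty vector background with AIL, 12 translation factors had a median of 0.07, with 2 at least 1.5-fold higher (MTRF1L 0.99, MTIF3 0.69) and 2 lower (GFM2 -1.05, MTIF2 -0.78). By that measure 20.9% of all genes tested were higher and 22.1% lower. GFM2 acts in ribosome recycling, MTIF2 and MTIF3 in initiation and MTRF1L in termination. TUFM, the elongation factor that brings aminoacyl-tRNA, was at 173, 152, 167 and 125 RPKM.

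Assembly factors were measured as well. Of 23, 14 (60.9%) were at least 1.5-fold higher with AIL in the empty vector background and 0 lower, with a median of 0.71. Over all genes tested, 20.9% were higher and 22.1% lower by that measure. MRM3 and MRM2, which methylate the large ribosomal RNA, both changed by 1.41, and TFB1M, which methylates the small one, by 1.34, while DHX30 changed by -0.35. In the AR1-651 background 14 of the 23 were at least 1.5-fold higher, where 28.6% of all genes tested were. The median there was 0.61, against 0.25 for the members and 0.27 for the translation factors. These lists were not tested against each other.

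Among 6 genes of mitochondrial transcription and mRNA stability the median was 0.61 with AIL in the empty vector background, and 4 were at least 1.5-fold higher and 1 lower. The shares over all genes tested were 20.9% and 22.1%. TEFM, the elongation factor, was at 8.49, 25.0, 15.3 and 45.2 RPKM. TFAM, which packages mitochondrial DNA, was at 9.38, 18.9, 8.51 and 29.1 RPKM. Both were higher with AIL in each background. LRPPRC, which stabilises mitochondrial mRNAs, was at 23.3, 13.7, 8.64 and 13.6 RPKM and was lower with AIL with empty vector (-0.72).

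Genes for the cytosolic ribosome and for the respiratory chain differed from the members in the comparisons with AIL. The median change with AIL in the empty vector background was 0.06 over 84 cytosolic ribosomal protein genes and 0.22 over 81 respiratory chain subunits, against 0.67 over the members. In the AR1-651 background these medians were -0.52, -0.30 and 0.25. With AR1-651 without AIL they were 0.88, 0.62 and 0.52. Cytosolic ribosomal protein genes took 23.1%, 22.3%, 33.0% and 25.5% of the summed RPKM, which bears on the RPKM of every other gene. These differences between lists were not tested.

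MRPS12, the counterpart of the bacterial decoding-centre protein S12, was at 51.1, 77.6, 59.1 and 63.0 RPKM, and overlaps SARS2 on the opposite strand. In all, 39 of the 77 members share exon bases with another gene in GENCODE release 29, 28 of them with a gene on the opposite strand, and 33 have pseudogenes named after them (70 in all). The counting tool and its use of strand are not given in the sources used here, so reads of such neighbours and of near-identical copies could enter these values.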

How the data were processed

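RNA from LNCaP cells was sequenced in 4 conditions with 1 library each on an Illumina HiSeq2000. Per the labels, a ribosomal RNA depletion kit is named and oligo(dT) enrichment is described, and the submitters' processing notes name BWA 0.7.10-r789 and hg19. The authors deposited RPKM (reads per length of exon, scaled to the reads of the library) with 2 decimals per Entrez gene. The counting tool, strand setting and annotation release are not given in the sources used here.

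Symbols were assigned by Entrez identifier from RefSeq (19703 of 19801 genes). Differences of log2(RPKM + 1) were computed over genes that reached an RPKM of 1 in any library. Genes at least 1.5-fold changed were counted, with 2-fold as an alternative. Because each condition has 1 library, no test was run. Depth was estimated from steps of RPKM in genes of at most 400 bases, with values within 2% of a whole read counted as matching, and counting errors cover neither cultures nor library preparation. Transcript lengths, GC content and exon overlaps came from GENCODE release 29 and promoter windows from RefSeq (GRCh38.p14). No window was matched for MRPL10, MRPL13, MRPL15, MRPL2, MRPL21, MRPL23, MRPL35 and MRPS28, and the promoters of 8 of the other 69 are shown. The members, lists and motifs were chosen with earlier results of these data known.

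Named members are, in each comparison, the 5 largest rises and falls, the 5 highest and lowest by mean RPKM, the 5 largest and smallest differences of the AIL change between backgrounds, and a list set by role. Choice by change favours extreme values in the libraries compared, so a lowest or highest library shared by such genes can follow from it. Alternatives were a pseudocount of 0.1, median-ratio scaling, equal summed RPKM without cytosolic ribosomal protein genes, other RPKM limits and removal of the trend with transcript length. Removal of length and GC trends together (degree 3 polynomials in ranks) was added after seeing the data. Scripts were tested on simulated data. Some genes are not reported here. Python 3.11.15, NumPy 2.4.6, pandas 2.3.3 and SciPy 1.17.1 were used.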

Additional observations from a re-analysis of the deposited data

Results flagged for a closer look

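Of the 39 members named, 11 moved in opposite directions with AIL in the 2 backgrounds. So did 21 of all 77 members (27.3%) and 27.8% of all genes tested, and 0 of these members were at least 1.5-fold changed in both. Of the 21 members, 20 were higher with AIL with empty vector and lower with AR1-651, and 1 went the other way. Over all 14626 genes tested, 1443 went the first way and 2627 the other. Each background has 1 library with and 1 without AIL, so the differences were not tested. The change with AR1-651 minus the change with empty vector was -1.19 for MRPL54, -0.94 for MRPL12, -0.90 for MRPL24, -0.89 for MRPL33, -0.84 for MRPL41 and -0.81 for MRPL28. It was -0.70 for MRPL23, -0.62 for MRPL13, -0.60 for MRPL43 and -0.48 for MRPS15. These 10 genes were higher with AIL in the empty vector background and lower with it in the AR1-651 background, though MRPL13 (-0.004) and MRPL54 (-0.08) were close to 0 in the latter. MRPS35 went the other way, with a difference of 0.96, and its change with empty vector was -0.04. Which named members had opposite signs depended on scaling. With median-ratio scaling MRPS26 (1.03 and -0.14), MRPS12 (0.58 and -0.13) and MRPL51 (0.09 and -0.21) had them as well. With equal summed RPKM outside cytosolic ribosomal protein genes MRPL51 had them (-0.004 and 0.05). There MRPL13 (0.52 and 0.03) and MRPS15 (-0.02 and -0.35) did not.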

How the results depend on the processing

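No paired analysis was possible because each condition has 1 library and no test was run. With median-ratio scaling, AIL with AR1-651 had 19 members at least 1.5-fold higher, 5 lower and a median of 0.031, AR1-651 without AIL had 1 lower and a median of 0.78, AR1-651 with AIL had 6 higher, and the median difference of the AIL changes between backgrounds was -0.61. With equal summed RPKM outside cytosolic ribosomal protein genes, the median for AIL with empty vector was 0.56, AR1-651 without AIL had 5 lower and a median of 0.36, AR1-651 with AIL had 0 higher, and the median difference was -0.26. A pseudocount of 0.1 gave 4 lower for AR1-651 without AIL. With the length trend removed, the median was 0.55 for AIL with empty vector and 0.13 for AIL with AR1-651, AR1-651 with AIL had 7 higher, and the large minus small subunit median for AR1-651 without AIL was 0.16. With length and GC trends removed (added after seeing the data), AIL with empty vector had a median of 0.54 and 1 lower, AIL with AR1-651 had 5 lower, AR1-651 without AIL had 4 lower and a large minus small subunit median of 0.18, and AR1-651 with AIL had 0 higher and 0 lower. MRPL22 (-0.042) and MRPL50 (-0.13) then changed sign for AIL with AR1-651. At 2-fold the members higher and lower were 7 and 0 for AIL with AR1-651, 11 and 0 for AR1-651 without AIL and 0 and 0 for AR1-651 with AIL, and 20 were higher for AIL with empty vector. Why these values moved was not tested beyond the construction of each alternative.

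Without an RPKM limit, or with a limit of 5, the same 77 members were kept, so no value for a member could move. Every member was at 15.8 RPKM or more in the AR1-651 + AIL library. Across all settings the members' median minus that of all genes was 0.56 to 0.69 for AIL with empty vector, 0.06 to 0.20 for AIL with AR1-651, 0.52 to 0.89 for AR1-651 without AIL and 0.10 to 0.19 for AR1-651 with AIL. Scaling moved the median of all genes from -0.30 to -0.09 (median-ratio) or -0.43 (equal sums) for AR1-651 without AIL, and from 0.13 to -0.03 (median-ratio) for AIL with AR1-651. With 1 library per condition, no depth of sequencing shows whether a difference would recur in another culture.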

Other observations

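MRPS6 and MRPS30 were not among the members named by rule. MRPS6 was at 48.7, 70.8, 36.1 and 57.2 RPKM in the order used above, so its changes with AIL were 0.53 with empty vector and 0.65 with AR1-651. MRPS30 was at 31.1, 57.8, 38.4 and 66.6 RPKM. MRPL32, of the large subunit, was at 72.7, 178, 108 and 221 RPKM and was at least 2-fold higher with AIL in both backgrounds, as were MRPL2 and MRPS18B. The genes MRPL36, MRPS17 and MRPL32 changed by 1.25, 1.46 and 1.28 with AIL in the empty vector background. MRPS6, MRPS30, MRPL32, MRPL36 and MRPS17 were chosen after their values were seen.

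Partners in head-to-head pairs did not always move with the member. MRPL40 changed by 0.72 with AIL in the empty vector background and its partner HIRA by -1.25. MRPL30 changed by -0.08 and its partner MITD1 by 1.48. MRPL50 and ZNF189, whose starts are 233 bases apart, changed by 1.00 and 1.01. Transcripts of the members and partners can overlap, and the use of strand in counting is not given in the sources used here.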
